A study of Mus musculus with 11 samples.

Results

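The 9 genes described here connect bacterial fermentation of fiber to the epithelium and were followed in sorted epithelial cells of the mouse small intestine. They were picked by symbol from the deposited table of 11366 genes, and 9 of 9 were found: the fatty acid transporters Slc16a1 and Slc5a8, the receptor Ffar2, the histone deacetylases Hdac1, Hdac2, Hdac3, Hdac6 and Hdac8, and the corepressor Ncor1. The libraries came from 3 groups of wild-type (WT) mice. SFB mice ate standard chow and were colonized with SFB, an abbreviation that the labels do not expand (n = 4). NFF mice ate a diet low in fermentable fiber and had no further treatment (n = 4). Control mice ate standard chow, also with no further treatment (n = 3). SFB and NFF mice thus differed in both diet and colonization. In all 3 groups live cells were sorted as EpCAM+, an epithelial surface protein, and as negative for CD45 (leukocytes), CD31 (endothelium) and CD44 (enriched on crypt cells). The labels give no age and do not say whether each library came from its own animal, so a p-value speaks only of the spread among libraries, which may be technical. Libraries are named by group and by the replicate number of their title, as in SFB 4.

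Gut bacteria ferment fiber to the short-chain fatty acids acetate, propionate and butyrate. Epithelial cells take these up with protons through MCT1, the product of Slc16a1, or with sodium through SMCT1, the product of Slc5a8, and sense them outside the cell through G protein-coupled receptors such as FFAR2. Inside the cell, butyrate and propionate inhibit zinc-dependent histone deacetylases, enzymes that remove acetyl groups from histones and other proteins and of which HDAC3 works as part of the NCoR corepressor complexes.

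The values are RPKM, reads scaled by gene length and library size. None of the 9 genes was called in any comparison, where called means a limma p-value under 0.05 after Benjamini-Hochberg adjustment over the 10482 genes tested. For SFB against Control that was 0 of 9 genes, where 0.2% of all tested genes were called, for NFF against Control 0 of 9, where 0% were called, and for SFB against NFF 0 of 9, where 7.34% were called. At an unadjusted p under 0.05 the numbers were 2 of 9, 0 of 9 and 1 of 9 genes, beside 12.1%, 4.82% and 25.7% of all tested genes. Libraries of the groups compared did not overlap for 1 of the 9 genes in each comparison, namely Ffar2, Hdac3 and Ffar2, each lower in the group named first. Of all tested genes 9.71%, 9.77% and 20% did not overlap, and 6.05%, 4.42% and 9.91% did so with lower values. The median log2 fold change of the 9 genes was -0.03 for SFB against Control, -0.06 for NFF against Control and 0.11 for SFB against NFF, against 0.01, -0.01 and 0.02 over all tested genes.

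Of the genes behind the sort, Epcam was at 489.5 to 670.4 RPKM and Ptprc, which encodes CD45, at 0.247 to 2.48 RPKM. Cd44, the gene of the CD44-negative gate, was at 1.17 to 2.29 RPKM in SFB, 0.333 to 0.646 in NFF and 0.457 to 0.969 in Control, and it rose in SFB against NFF (log2 difference 0.80, limma adjusted p = 0.0125). Only SFB libraries reached 1 RPKM, so Cd44 entered the test through them. Of 16 leukocyte markers, 3 had a row in the table (Ptprc, Itgam and Lyz2), with sums of 7.46 to 26.1 RPKM in SFB, 22.3 to 33.3 in NFF and 26.8 to 53.1 in Control. Their directions differed: Itgam, an integrin gene of myeloid cells, rose in SFB against NFF (5.46 to 12.7 RPKM in SFB and 1.12 to 3.48 in NFF; log2 difference 1.41, limma adjusted p = 0.0189), whereas the differences of Ptprc and Lyz2 were -0.69 and -1.50, not called. Paneth and goblet cell markers were present in every library, with sums of 420 to 12400 and 3650 to 8490 RPKM in SFB, 10300 to 17000 and 6060 to 15900 in NFF, and 12400 to 24900 and 7670 to 11600 in Control. Enterocyte markers summed to 3100 to 8920 RPKM in SFB, 7340 to 8740 in NFF and 4940 to 10100 in Control. Sums of RPKM over all genes were 237248 to 302661 per library, and the number of reads per library was not known. SFB 4, SFB 2 and Control 2 lay farthest from their group means, by 0.43, 0.38 and 0.35 (root mean square over genes, log2), against 0.16 to 0.28 for the other 8 libraries. SFB 4 held the highest value of 33.3% of the tested genes and Control 2 the lowest value of 17%.

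The stretches of DNA just before the start of 4 of these genes are shown because Slc16a1 and Hdac2 had their 2 highest values in the same 2 libraries, whereas Slc5a8 and Ffar2 varied most among the 9 genes. RefSeq windows (GRCm38.p6) were read for 7 of the 9 genes, and Hdac1 and Hdac3 were not among them. Each line gives the 250 bases before the annotated start, 5′ to 3′, with capitals marking GC boxes (GGGCGG on either strand).
Slc16a1 (chr3:104638414-104638663, plus strand): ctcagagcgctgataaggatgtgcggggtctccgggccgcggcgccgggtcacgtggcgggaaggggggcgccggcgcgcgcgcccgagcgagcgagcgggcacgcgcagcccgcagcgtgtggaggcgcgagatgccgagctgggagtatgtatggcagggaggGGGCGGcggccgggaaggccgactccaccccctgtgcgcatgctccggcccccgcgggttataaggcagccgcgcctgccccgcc
Hdac2 (chr10:36974294-36974543, plus strand): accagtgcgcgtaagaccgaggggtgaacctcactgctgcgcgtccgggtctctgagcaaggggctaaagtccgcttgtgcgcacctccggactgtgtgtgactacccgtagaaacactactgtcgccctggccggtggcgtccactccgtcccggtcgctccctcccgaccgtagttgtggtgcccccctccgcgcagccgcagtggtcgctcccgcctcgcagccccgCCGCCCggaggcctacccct
Slc5a8 (chr10:88885742-88885991, plus strand): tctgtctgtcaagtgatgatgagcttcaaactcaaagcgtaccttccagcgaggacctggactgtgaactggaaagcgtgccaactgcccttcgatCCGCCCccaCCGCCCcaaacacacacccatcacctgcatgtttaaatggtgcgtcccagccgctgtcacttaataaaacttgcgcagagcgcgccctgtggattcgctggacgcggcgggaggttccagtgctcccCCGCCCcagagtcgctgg
Ffar2 (chr7:30823776-30824025, minus strand): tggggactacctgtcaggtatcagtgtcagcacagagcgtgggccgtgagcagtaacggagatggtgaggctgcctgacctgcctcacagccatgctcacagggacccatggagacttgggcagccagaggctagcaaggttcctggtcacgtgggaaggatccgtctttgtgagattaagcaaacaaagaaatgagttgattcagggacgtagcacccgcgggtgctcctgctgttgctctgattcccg
The windows held 37 CG dinucleotides at Slc16a1, 27 at Hdac2, 17 at Slc5a8 and 9 at Ffar2, where the median over 32851 windows was 6. A GC box was found 1 time at Slc16a1, 1 time at Hdac2, 3 times at Slc5a8 and 0 times at Ffar2, and 32.7% of all windows held one. Neither CCAAT (in 33.8% of all windows) nor 2 spellings of the E2F motif, TTTCCCGC (0.895%) and TTTGGCGC (0.417%), was found in these 4 windows on either strand. For Ffar2, whose table entry lists 4 starts, the outermost one was used. These matches describe letters only.

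Slc5a8 and Slc16a1, the transporters, were the most abundant of the 9 genes per length of transcript. Slc5a8 lies on the plus strand of chromosome 10, from 88885992 to 88929515 (GENCODE M21, GRCm38). It stood at 58.7, 89.1, 62.4 and 37.3 RPKM in SFB 1 to 4, at 61.8, 43.6, 57.7 and 37.5 RPKM in NFF 1 to 4, and at 10.5, 39.9 and 54.9 RPKM in Control 2, 4 and 5. Control 2 was the lowest library by a wide margin, SFB 2 the highest, and all 3 groups overlapped. Between the lowest and the highest library the gene differed 8.53-fold, and 96.3% of tested genes had a smaller SD over the 11 libraries. On the log2(RPKM + 1) scale the difference for SFB against Control was 1.02 ± 0.46 (SE), with a 95% interval of 0.02 to 2.02 and an adjusted p of 0.403 by limma. The corresponding difference for NFF against Control was 0.76 ± 0.46, with an interval of -0.24 to 1.76 and an adjusted p of 0.896. Control 2 decided both values: without it they were 0.33 and 0.07. Over all alternatives the limma adjusted p was 0.214 to 0.850 and 0.621 to 1.00. SFB and NFF differed by 0.26, with an interval of -0.66 to 1.19 (limma adjusted p = 0.735).

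Slc5a8 is known from the distal small intestine and colon of the mouse, and markers of position along the gut differed between these libraries. Control 2 had summed distal markers of 1040 RPKM, against 5410 and 5770 in the other Control libraries, 6590 to 7480 in NFF and 2700 to 6650 in SFB. Its summed proximal markers were 3650 RPKM, against 316 and 424 in Control 4 and 5, 407 to 784 in NFF and 106 to 373 in SFB. Fabp6, the ileal bile acid binding protein, was at 146 RPKM in Control 2, against 1762 to 4352 RPKM in the other 10 libraries. The part of gut position in the Slc5a8 values was not tested. SFB 4, with the second lowest distal sum, also had the second lowest Slc5a8 value. NFF 4, with the highest distal sum, 7480 RPKM, was nearly as low for Slc5a8, at 37.5 RPKM against 37.3 in SFB 4.

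Slc16a1 lies on the plus strand of chromosome 3, from 104638668 to 104658462. Its values were 32.7, 32.1, 32.4 and 60.1 RPKM in SFB 1 to 4, 38.1, 32.5, 39.7 and 22.5 RPKM in NFF 1 to 4, and 36.2, 46.8 and 42.1 RPKM in Control 2, 4 and 5. SFB 1 to 3 lay within 1 RPKM of each other and below every Control library, whereas SFB 4 was the highest of all 11 libraries, and NFF 4 the lowest. Group means were 39.3 ± 13.8 RPKM in SFB, 33.2 ± 7.79 in NFF and 41.7 ± 5.32 in Control (SD; n = 4, 4 and 3). The log2 difference was -0.13 for SFB against Control (95% interval -0.66 to 0.40; limma adjusted p = 0.885), -0.34 for NFF against Control (-0.88 to 0.19; 0.896) and 0.22 for SFB against NFF (-0.28 to 0.71; 0.578). Without SFB 4 the first and the third were -0.35 and -0.0022, and without NFF 4 the second and the third were -0.17 and 0.05, still not called. The transcript per gene length of Slc16a1 exceeded that of Slc5a8 in Control 2, Control 4 and SFB 4 and was lower in the other 8 libraries, with a ratio of 0.36 in SFB 2 and 3.46 in Control 2.

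**Figure D1:**
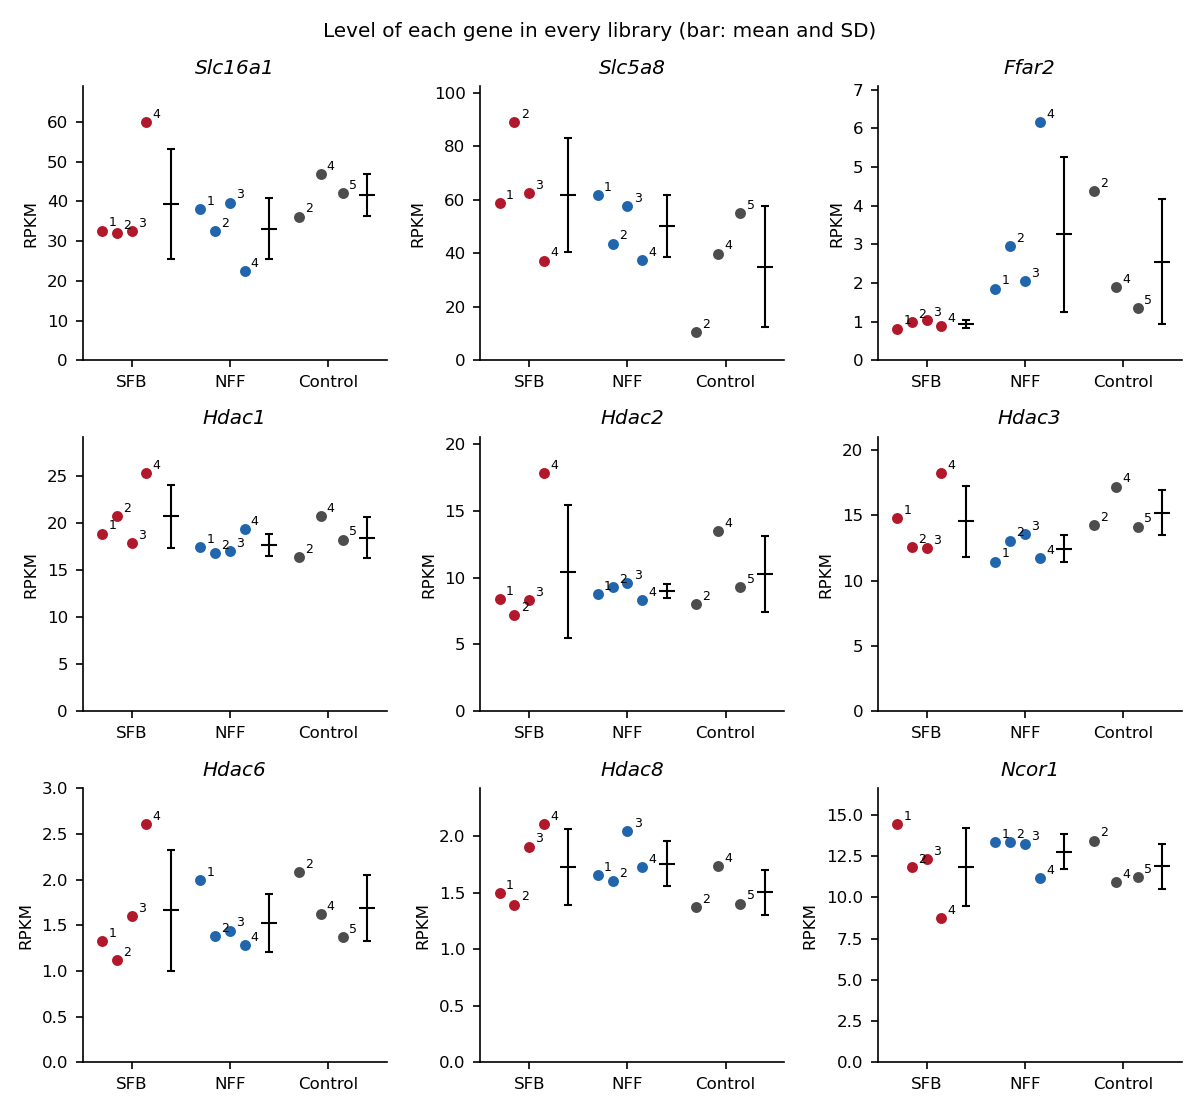
Level of each of the 9 genes in RPKM (vertical axis, linear, from 0) in every library of the SFB, NFF and Control groups; numbers are replicate numbers and bars give the mean and SD. The 4 SFB libraries of Ffar2 sit between 0.821 and 1.05 RPKM, below all other libraries, and SFB 4 is the highest library for Slc16a1 and for all 5 deacetylases.

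None of the other genes for moving short-chain fatty acids was called. Of 13 genes for transport of monocarboxylates and short-chain fatty acids and its partners, 10 were tested and 0 were called by limma in each comparison, with 1, 0 and 0 at an unadjusted p under 0.05 for SFB against Control, NFF against Control and SFB against NFF. Of all tested genes 0.2%, 0% and 7.34% were called and 12.1%, 4.82% and 25.7% had an unadjusted p under 0.05. The median log2 fold changes of the 10 genes were -0.07, -0.08 and 0.13, against 0.01, -0.01 and 0.02 over all tested genes. Bsg, the chaperone that brings MCT1 to the plasma membrane, was steady at 157 to 200 RPKM in SFB, 180 to 194 in NFF and 174 to 206 in Control. Slc26a3, an apical chloride and bicarbonate exchanger, ranged from 18.1 to 27.7 RPKM in SFB, 20.4 to 28.9 in NFF and 23.8 to 24.2 in Control. Outside the 9 genes, the lowest p belonged to Slc16a3, which encodes the monocarboxylate transporter MCT4, for SFB against Control (-0.36, limma adjusted p = 0.629). For NFF against Control and SFB against NFF it belonged to Pdzk1, a scaffold of apical transporters (0.77 and -0.91, limma adjusted p = 0.896 and 0.226). Next to Pdzk1 in SFB against NFF came Slc26a6, an anion exchanger (-0.47, limma adjusted p = 0.242).

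Ffar2, the receptor for short-chain fatty acids on enteroendocrine cells and some leukocytes, was the one of the 9 genes whose SFB libraries lay below all others. The gene lies on the minus strand of chromosome 7, from 30818348 to 30823775. It stood at 0.821, 0.980, 1.05 and 0.889 RPKM in SFB 1 to 4, at 1.86, 2.96, 2.04 and 6.17 RPKM in NFF 1 to 4, and at 4.39, 1.90 and 1.36 RPKM in Control 2, 4 and 5. The SFB libraries were close to each other, with an SD of 0.0995 RPKM around a mean of 0.934 (n = 4), whereas NFF and Control libraries spread widely, led by NFF 4 and Control 2. Only 1 of the 4 SFB libraries reached 1 RPKM, so the gene entered the test through its NFF and Control libraries, and the scale understates the change of a gene at this level. The estimated log2 difference was -1.04 ± 0.30 for SFB against NFF (SE; 95% interval -1.69 to -0.39; limma adjusted p = 0.0557), just outside the threshold. For SFB against Control it was -0.78 ± 0.32 (-1.49 to -0.08; limma adjusted p = 0.356), and -0.44 without Control 2, with limma adjusted p-values from 0.218 to 0.873 over the alternatives. NFF and Control differed by 0.25 (-0.45 to 0.96; limma adjusted p = 0.914), or -0.03 without NFF 4 and 0.60 without Control 2.

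The value for SFB against NFF sat on the threshold in the alternatives. With pseudocounts of 0.1 and 0.5 Ffar2 was called at -1.54 (limma adjusted p = 0.0367) and -1.26 (0.0464). It was also called with quantile normalization (-1.07; limma adjusted p = 0.0434), with only the SFB and NFF libraries in the fit (-1.04; 0.0381) and without Control 2, which enters that comparison only through the spread (-1.04; 0.0270). Leaving out any other library kept it uncalled, at values from -1.19 to -0.75, with the highest adjusted p, 0.134, without NFF 2. Over all alternatives the adjusted p ran from 0.0270 to 0.134. The lowest NFF library, at 1.86 RPKM, and the lowest Control library, at 1.36 RPKM, were both above the highest SFB library.

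The sum of enteroendocrine markers moved with Ffar2 across the libraries, but not every marker did. Of 11 such markers 10 had a row, and their sum was 389, 478, 379 and 183 RPKM in SFB 1 to 4, 619, 793, 549 and 1850 RPKM in NFF 1 to 4, and 1990, 604 and 461 RPKM in Control 2, 4 and 5. NFF 4 and Control 2, the 2 libraries with the highest Ffar2 values, had the 2 highest sums, and no SFB sum exceeded any NFF sum. Of the 10 tested markers, 0 were called higher and 2 lower for SFB against NFF by limma, where 3.14% and 4.2% of all tested genes were. The 2 were the granin genes Chgb, at 56.7 ± 19.4 RPKM in SFB and 246 ± 79.5 in NFF (SD, n = 4 each; log2 difference -2.09, limma adjusted p = 0.0368), and Chga, at 52.1 ± 21.8 and 190 ± 71.2 RPKM in the same order (-1.87; 0.0455). Log2 differences of Gcg, Cck and Pyy, which encode gut hormones, were 0.79, -0.01 and -0.16, not called. Gcg was at 42.5, 25.6, 17.98 and 24.9 RPKM in SFB 1 to 4, at 0.402, 111.4, 43.99 and 7.93 RPKM in NFF 1 to 4, and at 75.7, 104 and 91.8 RPKM in Control 2, 4 and 5. Pyy, from distal enteroendocrine cells, was at 103, 119, 116 and 44.1 RPKM in SFB 1 to 4, at 41.0, 74.9, 67.9 and 469 RPKM in NFF 1 to 4, and at 15.4, 153.5 and 70.4 RPKM in Control 2, 4 and 5. The mean log2 marker level was 4.34 to 4.68 in SFB 1 to 3, a span that holds NFF 1 (4.42) and Control 5 (4.63), and Ffar2 was higher in the last 2 libraries than in those 3. In these bulk samples fewer cells of a type and less RNA per cell cannot be told apart, and the part of enteroendocrine cell number in the Ffar2 values was not tested.

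Ffar3, the second receptor for short-chain fatty acids, fell in SFB relative to NFF. It stood at 3.50, 1.29, 0.793 and 0.382 RPKM in SFB 1 to 4, at 10.3, 8.91, 8.41 and 18.2 RPKM in NFF 1 to 4, and at 8.21, 4.63 and 8.76 RPKM in Control 2, 4 and 5. Every SFB library lay below every NFF and every Control library. SFB 3 and SFB 4 were below 1 RPKM, so the SFB libraries alone would not have brought Ffar3 into the test. By limma the log2 difference was -2.41 ± 0.35 for SFB against NFF (SE; limma adjusted p = 0.0029), and the call held without any 1 of the 11 libraries, with a highest adjusted p of 0.0126. SFB and Control differed by -1.83 ± 0.37 (limma adjusted p = 0.0718), a difference called without SFB 1 (-2.16), with limma adjusted p-values from 0.0135 to 0.477 over the alternatives. NFF and Control differed by 0.58 ± 0.37, not called (limma adjusted p = 0.896). Of the 13 genes for receptors and the G proteins and arrestins they use, 8 were tested. Ffar3 was the only one of the 8 called, in SFB against NFF, where 7.34% of all tested genes were called, and 0 were called in SFB against Control (3 at an unadjusted p under 0.05, beside 12.1% of all tested genes) and 0 in NFF against Control (0 at an unadjusted p under 0.05). Their medians were -0.10, 0.15 and -0.25 for SFB against Control, NFF against Control and SFB against NFF, against 0.01, -0.01 and 0.02 over all tested genes. Gnaq, a G protein subunit through which FFAR2 signals, had the lowest p for NFF against Control (0.29; limma adjusted p = 0.896). The receptors Hcar1, Hcar2, Olfr78 and Olfr558 were not analysed here.

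Tuft cell markers, those of chemosensory cells that share G protein signalling parts with taste cells, were also low in SFB. Of 12 such markers 9 had a row, with sums of 11.3 to 64.9 RPKM in SFB, 140 to 268 in NFF and 88.5 to 171 in Control. Of the 9 tested, 9 fell in SFB against NFF, where 4.2% of all tested genes did. In SFB against Control 0 were called, and all 9 had an unadjusted p under 0.05, beside 12.1% of all tested genes. Dclk1, Ptgs1 and Plcb2 reached 1 RPKM in too few SFB libraries to be tested on those libraries alone. Trpm5, the tuft cell cation channel, was at 2.70 ± 1.87 RPKM in SFB and 20.7 ± 4.52 in NFF (SD, n = 4 each). Within SFB, both the tuft sum and Ffar3 were highest in SFB 1 and lowest in SFB 4. The part of tuft and enteroendocrine cells in the Ffar3 values was not tested.

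**Figure D2:**
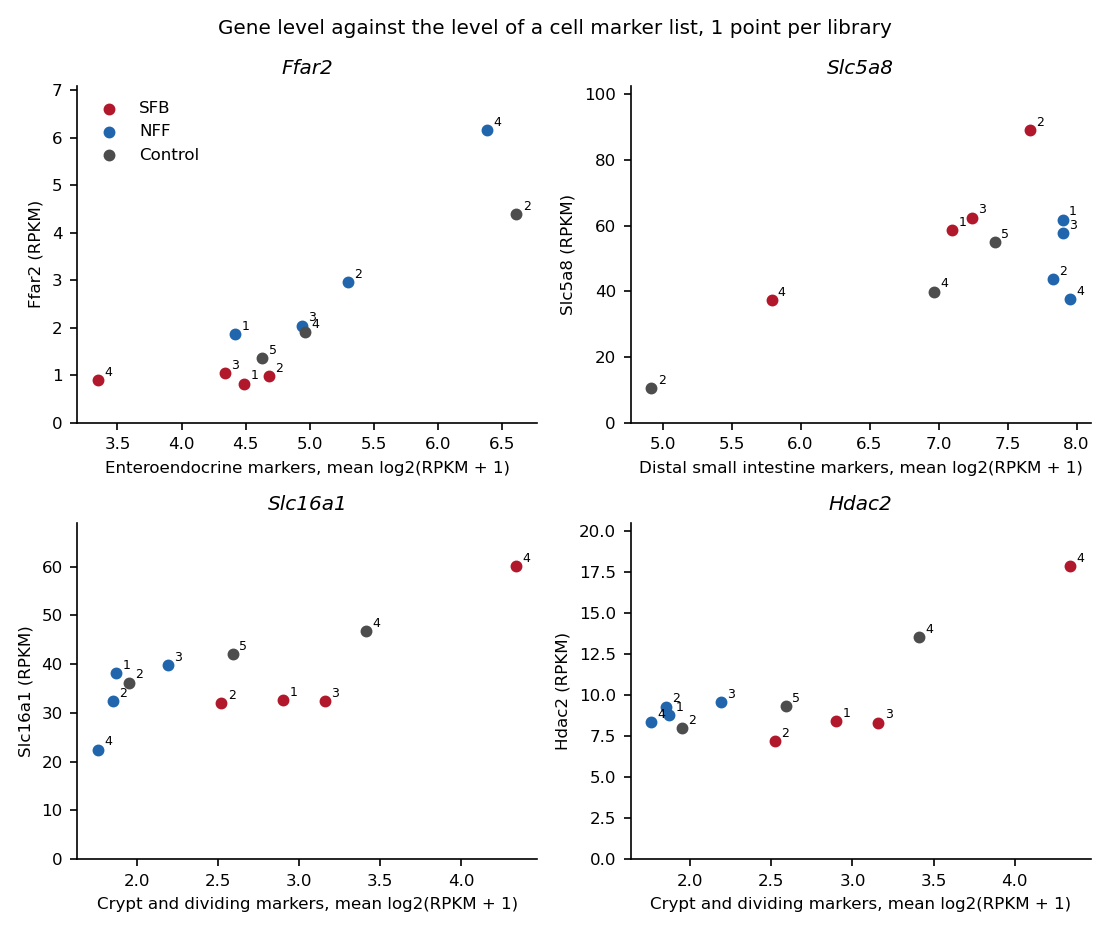
Level of Ffar2, Slc5a8, Slc16a1 and Hdac2 in RPKM (vertical axis, linear, from 0) against the mean log2(RPKM + 1) of a marker list (horizontal axis), 1 point per library, coloured by group and numbered by replicate. Ffar2 is highest in NFF 4 and Control 2, which have the highest enteroendocrine levels, Slc5a8 lowest in Control 2, which has the lowest distal level, and Slc16a1 and Hdac2 highest in SFB 4 and Control 4, which have the highest levels of crypt and dividing markers. Other libraries differ: NFF 4, with the highest distal level (7.95), has Slc5a8 at 37.5 RPKM, close to SFB 4. SFB 3, with the next highest crypt and dividing level (3.16), has Slc16a1 at 32.4 and Hdac2 at 8.31 RPKM, below NFF 1 and NFF 3.

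The class I deacetylases Hdac1, Hdac3 and Hdac2 were well expressed, and Hdac8 and the cytoplasmic Hdac6 were near the lower limit of the test. Hdac1, a nuclear enzyme of the Sin3, NuRD and CoREST complexes, lies on the minus strand of chromosome 4, from 129516104 to 129542713. It stood at 18.9, 20.7, 17.9 and 25.4 RPKM in SFB 1 to 4, at 17.4, 16.8, 17.0 and 19.4 RPKM in NFF 1 to 4, and at 16.4, 20.7 and 18.3 RPKM in Control 2, 4 and 5. The groups overlapped, and the gene varied only 1.55-fold from lowest to highest. On the log2(RPKM + 1) scale the difference was 0.15 for SFB against Control (95% interval -0.14 to 0.45), -0.06 for NFF against Control (-0.35 to 0.24) and 0.21 for SFB against NFF (-0.06 to 0.48), with limma adjusted p-values of 0.703, 0.949 and 0.316. A processed pseudogene, Gm10093, matches an Hdac1 transcript at 99.4% of 1444 aligned bases, so the authors' counting could have split or lost Hdac1 reads.

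Hdac2, the close relative that shares those complexes, lies on the plus strand of chromosome 10, from 36974544 to 37001889. Its values were 8.42, 7.17, 8.31 and 17.8 RPKM in SFB 1 to 4, 8.78, 9.29, 9.58 and 8.33 RPKM in NFF 1 to 4, and 8.0, 13.5 and 9.30 RPKM in Control 2, 4 and 5. SFB 4 and Control 4 stood out from 9 libraries that lay between 7.17 and 9.58 RPKM. The log2 difference was -0.03 for SFB against Control (95% interval -0.59 to 0.52; limma adjusted p = 0.979), -0.14 for NFF against Control (-0.70 to 0.41; 0.937) and 0.11 for SFB against NFF (-0.41 to 0.63; 0.802). Without SFB 4 the first and the third were -0.30 and -0.16, and without Control 4 the second was 0.05, none of them called.

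Hdac3, the catalytic subunit of the NCoR complexes, lies on the minus strand of chromosome 18, from 37935844 to 37955016. It stood at 14.8, 12.6, 12.5 and 18.2 RPKM in SFB 1 to 4, at 11.4, 13.1, 13.5 and 11.7 RPKM in NFF 1 to 4, and at 14.2, 17.2 and 14.1 RPKM in Control 2, 4 and 5. Every NFF library was below every Control library, while SFB overlapped both. The log2 difference for NFF against Control was -0.27 ± 0.14 (SE; 95% interval -0.58 to 0.04), with an adjusted p of 0.896 by limma. Alternatives gave adjusted p-values from 0.248 to 1.00 and values from -0.31 to -0.18, and the smallest was reached without Control 2 and SFB 4. For SFB against Control it was -0.07 (-0.38 to 0.24; limma adjusted p = 0.900), and for SFB against NFF 0.20 (-0.09 to 0.48; 0.371).

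Hdac6, a cytoplasmic enzyme that deacetylates tubulin, lies on the minus strand of chromosome X, from 7930120 to 7947889. It was at 1.32, 1.12, 1.61 and 2.61 RPKM in SFB 1 to 4, at 1.99, 1.38, 1.44 and 1.29 RPKM in NFF 1 to 4, and at 2.09, 1.62 and 1.38 RPKM in Control 2, 4 and 5. Hdac8, a class I enzyme that deacetylates the cohesin subunit SMC3, lies on the minus strand of chromosome X, from 102284639 to 102505359. It was at 1.49, 1.39, 1.91 and 2.11 RPKM in SFB 1 to 4, at 1.65, 1.60, 2.04 and 1.73 RPKM in NFF 1 to 4, and at 1.37, 1.73 and 1.40 RPKM in Control 2, 4 and 5. All groups overlapped for both genes. Their log2 differences in the 3 comparisons lay between -0.09 and 0.14, with 95% intervals within -0.50 and 0.43 and limma adjusted p-values from 0.784 to 0.963. Hdac8 had one of the smaller spreads, since 8.8% of tested genes had a smaller SD over the libraries. The span of the noncoding gene Gm14858 overlaps that of Hdac8 on the other strand. Since the kits do not mark strand, reads from any exonic stretch that both share could not be told apart. Whether their exons overlap was not examined.

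Ncor1, the scaffold that binds and activates HDAC3, ran against the deacetylases in SFB 4. The gene lies on the minus strand of chromosome 11, from 62316426 to 62458541, and overlaps Ttc19 and Pigl on the other strand. As for Hdac8, reads from any shared exonic stretch could not be told apart, and overlap of exons was not examined. A processed pseudogene, Gm6743, matches an Ncor1 transcript at 94.8% of 556 aligned bases. It stood at 14.5, 11.8, 12.3 and 8.75 RPKM in SFB 1 to 4, at 13.3, 13.4, 13.2 and 11.2 RPKM in NFF 1 to 4, and at 13.4, 10.9 and 11.2 RPKM in Control 2, 4 and 5. SFB 1 was the highest and SFB 4 the lowest of the 11 libraries, and the 3 groups overlapped. By limma the log2 difference was -0.02 for SFB against Control (95% interval -0.35 to 0.31), 0.10 for NFF against Control (-0.23 to 0.43) and -0.12 for SFB against NFF (-0.43 to 0.19), with limma adjusted p-values of 0.982, 0.929 and 0.635. Without SFB 4 the first and the third were 0.11 and 0.0082.

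**Figure D3:**
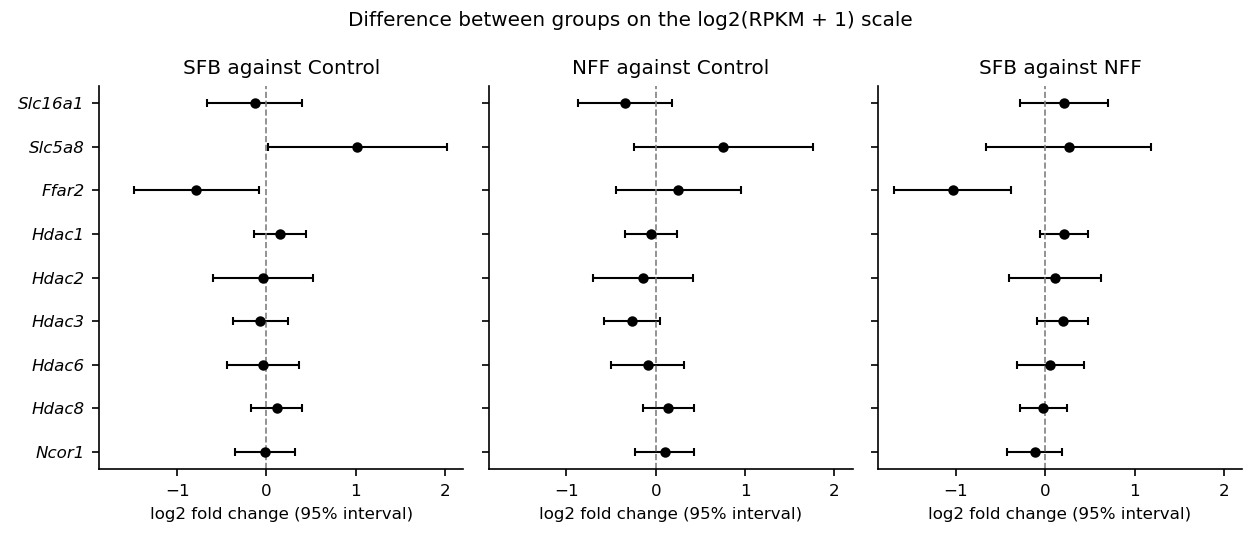
Log2 fold change of each gene on the log2(RPKM + 1) scale (horizontal axis) with its 95% interval from limma, for SFB against Control, NFF against Control and SFB against NFF; the dashed line marks no difference. The interval of Ffar2 lies below 0 in both comparisons that involve SFB and that of Slc5a8 just above 0 in SFB against Control, but no gene was called after adjustment.

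SFB 4 held the highest value for 6 of the 9 genes, Slc16a1 and the 5 deacetylases, and the lowest for Ncor1. Of all tested genes it held the highest value of 33.3% and the lowest of 16.1%. Control 2 held the lowest value for Slc5a8, Hdac1 and Hdac8, where it held the lowest value of 17% of all tested genes. Markers of crypt and dividing cells were highest in the same SFB library: of 15 such markers 14 had a row, with sums of 116, 93.2, 150 and 406 RPKM in SFB 1 to 4, 46.5, 47.6, 63.9 and 43.9 RPKM in NFF 1 to 4, and 56.4, 182 and 96.3 RPKM in Control 2, 4 and 5. Control 4, with the next highest sum, had the next highest Slc16a1, Hdac2 and Hdac3 values. The next highest values of Hdac1, Hdac6 and Hdac8 belonged to SFB 2, Control 2 and NFF 3. For Hdac1, SFB 2 and Control 4 were nearly equal, at 20.746 and 20.735 RPKM. The sum in every SFB library exceeded that in every NFF library. Hdac2 in SFB 1 to 3, at 7.17 to 8.42 RPKM, lay below NFF 1 to 3, at 8.78 to 9.58 RPKM, but NFF 4, at 8.33 RPKM, lay within the span of SFB 1 to 3. Hdac1 in SFB 1 to 3, at 17.9 to 20.7 RPKM, lay above NFF 1 to 3, at 16.8 to 17.4 RPKM, but NFF 4, at 19.4 RPKM, again lay within the span of SFB 1 to 3. The part of dividing cells in the values of the transporter and the deacetylases was not tested.

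In order of level per gene length, Slc5a8 and Slc16a1 came first, followed by Hdac1, then Hdac3 and Ncor1, then Hdac2, and last Ffar2, Hdac8 and Hdac6. Slc5a8 and Slc16a1 overlapped within every group, and their means stood in the other order in Control (35.1 and 41.7 RPKM). Slc16a1 and Hdac1 did not overlap within any group, and neither did Hdac2 and Ffar2. Hdac1 and Hdac3 overlapped in SFB and Control, Hdac3 and Ncor1 in SFB and NFF, and Hdac8 and Hdac6 in all 3 groups. Ffar2 lay below Hdac8 in 4 of 4 SFB libraries and above it in 4 of 4 NFF libraries and 2 of 3 Control libraries.

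Among all 11 zinc-dependent deacetylases, Hdac5 was the one called. This class IIa enzyme, which shuttles between nucleus and cytoplasm, fell in SFB against NFF. It was at 1.34, 1.16, 2.17 and 0.83 RPKM in SFB 1 to 4, at 3.84, 3.83, 3.17 and 4.22 RPKM in NFF 1 to 4, and at 3.45, 1.80 and 2.67 RPKM in Control 2, 4 and 5. SFB and NFF libraries did not overlap. Both Hdac5 and the sum of tuft cell markers were highest in NFF 4 and lowest in SFB 4. Within SFB they differed, since Hdac5 was highest in SFB 3, with a tuft sum of 29 RPKM, against 64.9 RPKM in SFB 1. The part of tuft cells in the Hdac5 values was not tested. On the log2(RPKM + 1) scale the difference was -1.03 ± 0.18 (SE; limma adjusted p = 0.0083), called without any 1 library, with a highest adjusted p of 0.0341. SFB against Control gave -0.62 ± 0.20 (limma adjusted p = 0.232) and NFF against Control 0.41 ± 0.20 (0.896). Of the 11 deacetylase genes 9 were tested, of which 0, 0 and 1 were called in SFB against Control, NFF against Control and SFB against NFF, with 1, 0 and 2 at an unadjusted p under 0.05 and medians of -0.04, -0.02 and -0.0045, against 0.01, -0.01 and 0.02 over all tested genes. Of all tested genes 0.2%, 0% and 7.34% were called and 12.1%, 4.82% and 25.7% had an unadjusted p under 0.05, so these counts do not set the list apart. Hdac7 and Hdac9, at most 0.839 and 1.86 RPKM, were too low to be tested. Hdac11, the class IV enzyme, had the second lowest p in SFB against Control (-0.44; limma adjusted p = 0.454).

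The NAD-dependent sirtuins, all 7 of them tested, had 1 called gene in SFB against NFF and 2 at an unadjusted p under 0.05, where 7.34% and 25.7% of all tested genes did. Sirt2, a cytoplasmic tubulin deacetylase like Hdac6, fell to 5.65 ± 0.358 RPKM in SFB, against 7.79 ± 0.496 in NFF (SD, n = 4 each), a log2 difference of -0.40 ± 0.09 (SE; limma adjusted p = 0.0273). It was at 6.11 ± 0.347 RPKM in Control (SD, n = 3). The call was lost without NFF 2, NFF 3, NFF 4, SFB 1 or SFB 2, with a highest adjusted p of 0.0804. In SFB against Control and NFF against Control 0 sirtuins were called, with 0 and 1 at an unadjusted p under 0.05, beside 12.1% and 4.82% of all tested genes. The sirtuin medians over the 3 comparisons were -0.10, 0.09 and -0.21, against 0.01, -0.01 and 0.02 over all tested genes. Sirt5, a mitochondrial desuccinylase, and Sirt6, a chromatin-bound deacetylase, had the lowest p in SFB against Control (-0.22 and 0.21; limma adjusted p = 0.497 and 0.583).

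The complexes around these deacetylases had 0 called genes in each comparison. Of all tested genes 0.2%, 0% and 7.34% were called for SFB against Control, NFF against Control and SFB against NFF. In the NCoR list, with all 6 genes tested, medians were -0.04, -0.00083 and 0.04 for SFB against Control, NFF against Control and SFB against NFF, against 0.01, -0.01 and 0.02 over all tested genes, with 0, 0 and 1 genes at an unadjusted p under 0.05. Tbl1xr1 and Tbl1x, which encode the TBL1 subunits, had the lowest p in SFB against Control (0.34 and 0.22; limma adjusted p = 0.558 and 0.688), and without Control 2 and SFB 4 these values were below 0. Of the 33 genes of the Sin3, NuRD and CoREST complexes and the related MiDAC complex 30 were tested, with 2, 1 and 4 at an unadjusted p under 0.05, beside 12.1%, 4.82% and 25.7% of all tested genes, and medians of 0.04, 0.02 and -0.02. Chd3, a NuRD remodeller, had the lowest unadjusted p in NFF against Control, at 12.2 ± 1.37 RPKM in NFF and 7.14 ± 2.53 in Control (SD, n = 4 and 3; log2 difference 0.74, limma adjusted p = 0.896). Suds3, a Sin3 subunit, had the lowest p in SFB against NFF (-0.29; limma adjusted p = 0.0841), and Mideas and Dnttip1, the MiDAC subunits, in SFB against Control (0.47 and -0.26; 0.318 and 0.334).

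Among the enzymes that add acetyl groups and the proteins that read them, Hat1, the acetyltransferase of newly made histone H4, rose in SFB against NFF. It was at 5.60, 4.86, 5.81 and 11.8 RPKM in SFB 1 to 4, at 2.97, 2.90, 2.90 and 2.75 RPKM in NFF 1 to 4, and at 3.26, 6.69 and 3.98 RPKM in Control 2, 4 and 5. Its 2 highest libraries were SFB 4 and Control 4, which also had the highest sums of crypt and dividing markers, and the part of those cells in the Hat1 values was not tested. The estimated log2 difference was 0.97 ± 0.24 (SE; limma adjusted p = 0.0325), a call lost without NFF 1, NFF 2, NFF 3, NFF 4 or SFB 3 (highest adjusted p = 0.0885). The list had 13 of 14 genes tested, of which 0, 0 and 1 were called in SFB against Control, NFF against Control and SFB against NFF, with 0, 0 and 2 at an unadjusted p under 0.05 and medians of 0.04, 0.03 and -0.01, against 0.01, -0.01 and 0.02 over all tested genes. In SFB against NFF 7.34% of all tested genes were called and 25.7% had an unadjusted p under 0.05, so these counts do not set the list apart.

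Several enzymes of short-chain fatty acid and ketone body metabolism were called in SFB against NFF. Of 21 such genes 19 were tested. In SFB against Control 0 rose and 1 fell, where 0.124% and 0.0763% of all tested genes did. An unadjusted p under 0.05 was reached there by 3 of the 19, beside 12.1% of all tested genes. In NFF against Control 0 were called, with 4 at an unadjusted p under 0.05, beside 4.82% of all tested genes. In SFB against NFF 1 rose and 4 fell, where 3.14% and 4.2% of all tested genes did. An unadjusted p under 0.05 was reached there by 9 of the 19, beside 25.7% of all tested genes. Medians were -0.05, -0.03 and -0.18, against 0.01, -0.01 and 0.02 over all tested genes. Acaa2, the mitochondrial thiolase of beta-oxidation, fell in both comparisons that involve SFB, which share the SFB libraries. It was at 60.2, 55.6, 50.6 and 75.3 RPKM in SFB 1 to 4, at 117, 173, 135 and 150 RPKM in NFF 1 to 4, and at 177, 127 and 116 RPKM in Control 2, 4 and 5, with every SFB library below every other library. The log2 difference was -1.24 ± 0.18 for SFB against NFF (SE; limma adjusted p = 0.0029; at most 0.0143 without any 1 library) and -1.19 ± 0.19 for SFB against Control (0.0344). The second call was lost without NFF 2, NFF 3, NFF 4, SFB 2, SFB 3, Control 2, Control 4 or Control 5 and with only SFB and Control in the fit, with limma adjusted p-values from 0.0129 to 0.310 over the alternatives.

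The calls of Pccb and Acsm5 were made in SFB against NFF, and both were lost without some libraries. Pccb, a subunit of the propionyl-CoA carboxylase that breaks down propionate, fell to 27.2 ± 4.86 RPKM in SFB, against 44.9 ± 7.48 in NFF (SD, n = 4 each; log2 difference -0.70, limma adjusted p = 0.0223), a call lost without NFF 1, NFF 2, NFF 3 or SFB 3 (highest adjusted p = 0.0642). Acsm5, a mitochondrial acyl-CoA synthetase gene, fell to 0.616 ± 0.292 RPKM in SFB, against 1.83 ± 0.290 in NFF (-0.82; 0.0277), lost without NFF 2, NFF 3, NFF 4, SFB 1 or SFB 4 (highest adjusted p = 0.0871). It entered the test through its 4 NFF libraries and Control 2, the libraries that reached 1 RPKM.

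Bdh1, the dehydrogenase that interconverts the 2 main ketone bodies, was the one gene of the list that rose. It was at 16.6, 14.4, 14.0 and 24.8 RPKM in SFB 1 to 4, at 11.3, 9.97, 11.4 and 9.13 RPKM in NFF 1 to 4, and at 16.3, 19.4 and 16.6 RPKM in Control 2, 4 and 5. All NFF libraries lay below all others. On the log2(RPKM + 1) scale the difference was 0.66 ± 0.16 for SFB against NFF (SE; limma adjusted p = 0.0354), lost without NFF 1, NFF 2, NFF 3, NFF 4, SFB 1 or Control 5 (highest adjusted p = 0.104). For NFF against Control it was -0.69 ± 0.18 with an adjusted p of 0.618 by limma, and it was called without Control 2 and SFB 4 (-0.73), with adjusted p-values from 0.0435 to 1.00 over the alternatives.

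**Figure D4:**
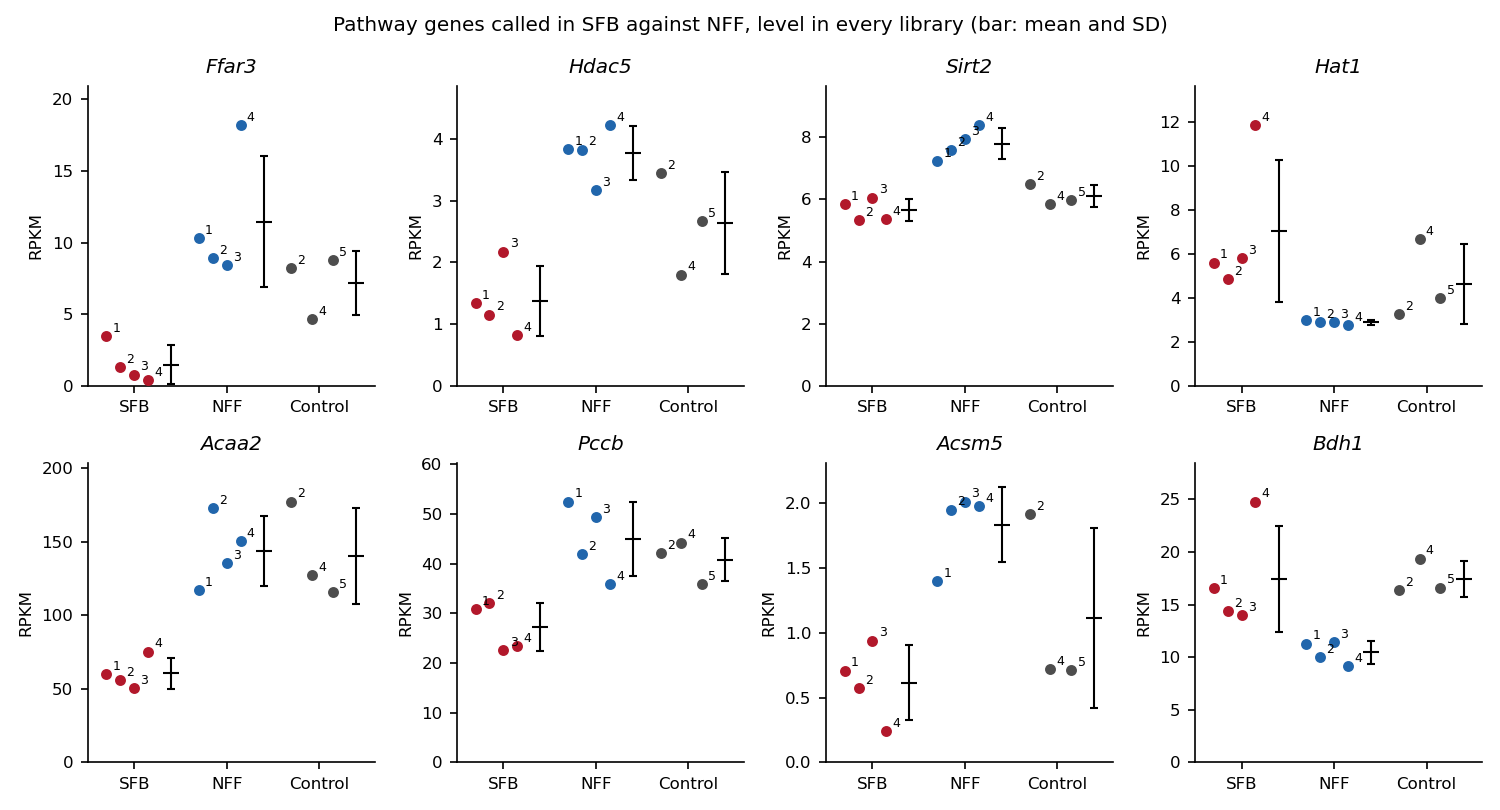
Level in RPKM (vertical axis, linear, from 0) of 8 genes of the lists on fatty acids and acetylation that were called in SFB against NFF, in every library of the SFB, NFF and Control groups; numbers are replicate numbers and bars give the mean and SD. Ffar3, Hdac5, Sirt2, Acaa2, Pccb and Acsm5 are lower in every SFB library than in every NFF library, and Hat1 and Bdh1 are higher.

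Over the lists together, 101 different genes were tested, of which 1 was called in SFB against Control, 0 in NFF against Control and 9 in SFB against NFF, where 0.2%, 0% and 7.34% of all tested genes were called. A share near that of all genes says nothing particular about the lists.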

How the data were processed

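The data were 11 RNA-seq libraries, made per the labels' protocols from total RNA of sorted cells with the SMART-seq v4 and NexteraXT kits, which add no molecular identifiers and do not mark strand. RPKM values for 11366 genes were deposited, per the file headers. STAR and the build mm10 are named in the submitters' processing notes. How reads were counted, which gene lengths were used and which genes counted as detected is not stated there. No steps of whole reads were found in the low values with GENCODE M21 lengths, so the depth stayed unknown and counting intervals are not given.

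Tests used log2(RPKM + 1), which understates the change of low genes. Genes with at least 1 RPKM in at least 3 libraries were tested (10482), and 884 were left out. R 4.3.3 and limma 3.58.1 fitted 1 mean per group to all 11 libraries, with 8 residual degrees of freedom and eBayes with a trend. P-values were adjusted by Benjamini-Hochberg over all tested genes. The fit was tested on simulated data.

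The 9 genes and the gene lists were chosen with earlier results of these data known. Named beside the 9 genes were all called genes of each list, or up to 2 of lowest unadjusted p. Some list genes that this rule names are not reported here, though the counts and medians of the lists include them. Markers and some ranges shown beside a result were chosen after their values were seen. Mideas is named Elmsan1 in the deposited table and was matched by its Entrez identifier. Alternatives changed the pseudocount, the filter, the scaling, the eBayes settings or the libraries in the fit, or added the replicate number as a block.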

Additional observations from a re-analysis of the deposited data

Results flagged for a closer look

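In groups of 4 libraries, 3 of the 18 sets of values of these genes (9 genes in SFB and in NFF) had 1 library far from the rest by Dixon's test on the log2(RPKM + 1) scale, where chance flags about 1 in 20. Slc16a1 stood at 60.1 RPKM in SFB 4, a gap of 0.972 of the group's range from the next library. Hdac2 stood at 17.8 RPKM in SFB 4, with a gap of 0.83 of the range. Ncor1 stood at 11.2 RPKM in NFF 4, below the other NFF libraries, with a gap of 0.939 of the range. SFB 4 was also the library with the highest sum of crypt and dividing markers, 406 RPKM, and NFF 4 that with the highest sum of enteroendocrine markers among the NFF libraries, 1850 RPKM. The part of these cells in the 3 values was not tested.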

How the results depend on the processing

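In SFB against Control and NFF against Control none of the 9 genes was called under any alternative run. In SFB against NFF 1 gene, Ffar2, was called with pseudocounts of 0.1 and 0.5, with quantile normalization, with only the groups compared in the fit, and without Control 2 and SFB 4 together (an alternative chosen after seeing the data). Leaving out each library in turn gave 0 to 1. Under the stricter filter (at least 3 RPKM) Ffar2, Hdac6 and Hdac8 were not tested. Called genes of the whole table were 769 in SFB against NFF and 242 to 1000 without 1 library, 1173 with quantile normalization, 335 with the replicate block, and 1259 without Control 2 and SFB 4. In SFB against Control they were 21, and 7 to 94, 0 with the block, 1 with only the groups compared, and 183 without Control 2 and SFB 4. In NFF against Control they were 0, and 0 to 8, 1 with only the groups compared, and 44 without Control 2 and SFB 4. The cause was not tested.

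Signs turned for differences near 0, none of them called. With quantile normalization Hdac2 and Ncor1 in SFB against Control were 0.0041 and 0.027, and Hdac6 in SFB against NFF was -0.023. With the replicate block Hdac1 and Ncor1 in NFF against Control were 0.033 and -0.052, and Hdac2 in SFB against Control was 0.0041. Without Control 2 and SFB 4, Hdac6 in NFF against Control was 0.0096. In SFB against Control Hdac1, Ncor1, Atat1, Tbl1xr1 and Tbl1x were then -0.023, 0.19, 0.097, -0.041 and -0.055. In SFB against NFF Slc16a1, Hdac2, Hdac6 and Ncor1 were then -0.0022, -0.16, -0.10 and 0.0082. Without 1 library, ranges that included both signs were, in NFF against Control, -0.032 to 0.60 for Ffar2, -0.13 to 0.028 for Hdac1, -0.29 to 0.052 for Hdac2 and -0.18 to 0.0096 for Hdac6. In SFB against Control they were -0.30 to 0.16 for Hdac2, -0.18 to 0.017 for Hdac3, -0.19 to 0.065 for Hdac6 and -0.11 to 0.11 for Ncor1. In SFB against NFF they were -0.0022 to 0.31 for Slc16a1, -0.16 to 0.24 for Hdac2, -0.10 to 0.15 for Hdac6, -0.087 to 0.038 for Hdac8 and -0.21 to 0.0082 for Ncor1.

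The labels do not say what a replicate number marks, and deviations of same-numbered libraries correlated at -0.301 to 0.0277 for SFB and NFF and at -0.173 and -0.277 for NFF and Control, so the numbers were not taken as pairs. For SFB and Control, which share 2 numbers, the values were 0.201 for number 2 and 0.668 for number 4, and SFB 4 and Control 4 correlated best with each other. In all, 3 of 11 libraries correlated best with one of their own number. With the number as a block 0 of the 9 genes were called in each comparison, Ffar2 in SFB against NFF had a limma adjusted p of 0.095, and the calls of Pccb, Acsm5, Bdh1 and Sirt2 there and of Acaa2 in SFB against Control were lost.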

Other observations

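Hdac1 exceeded Hdac2 in every library, by a ratio of 2.25, 2.89, 2.15 and 1.42 in SFB 1 to 4, 1.98, 1.81, 1.78 and 2.33 in NFF 1 to 4, and 2.04, 1.54 and 1.96 in Control 2, 4 and 5. The 2 lowest ratios were those of SFB 4 and Control 4. Over the 11 libraries, which include the differences between groups, the genes whose log2(RPKM + 1) was most like that of Slc5a8 were Slc44a4, Bend7 and Slc26a2, with Pearson's r of 0.983, 0.971 and 0.962. For Ffar2 they were Rundc3a, Krt7 and Kcnh6 (0.97, 0.967 and 0.96), for Slc16a1 Spg21, Glyr1 and Ttc13 (0.98, 0.965 and 0.954), for Hdac3 Pdss1, Wdr92 and Gcdh (0.981, 0.967 and 0.967), and for Ncor1 Mertk, Tbc1d23 and Rab11fip3 (0.936, 0.914 and 0.903). These are the highest of 10482 values each, given as a description with no test.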
